A study of Mus musculus with 8 samples.

Results

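The 31 genes described here are the semaphorins (20 genes), the plexins (9 genes) and the neuropilins (2 genes) of the mouse. They were selected by symbol alone, as every gene named Sema3 to Sema7 with a letter, Plxna to Plxnd with a number, or Nrp1 or Nrp2, from the 32285 genes of the count matrix. They were measured by single-cell RNA sequencing on cells dissociated from the ascending part of the thoracic aorta. The donors were 3 wildtype mice in old age, 1 each of 81, 84 and 88 weeks. The mice carried no treatment or engineered allele per the labels, and strain and sex were not given in the sources used here. Cells of each mouse were marked with a barcoded hashtag antibody and pooled, and 4 gene expression and 4 hashtag libraries of that pool were deposited as a single matrix. All comparisons are therefore between cell types of the pool, summed by hashtag, and with 1 mouse per age no level was tested between ages.

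Semaphorins are guidance proteins that act on cell shape and adhesion. The Sema3 proteins are secreted, while those of the other groups used here are mostly held at the cell membrane. Plexins are their main receptors: their inner part acts on small GTPases of the Ras and Rap families and lowers integrin adhesion. Most Sema3 proteins need a neuropilin as the binding partner of an A-type plexin, whereas Sema3E binds plexin D1 directly, and neuropilins also serve as co-receptors of VEGF (vascular endothelial growth factor). In blood vessels the family is known for steering endothelial sprouts and for the inputs from wall cells that restrain them.

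The deposited matrix held 142108011 gene UMIs (unique molecular identifiers, which count captured molecules) in 26916 barcodes. A barcode was taken as a cell if it had 1000 or more UMIs, 500 or more detected genes and less than 15% of UMIs from mitochondrial genes; removing doublets and requiring a single hashtag left 4175 cells with 31441903 UMIs. The mouse of 81 weeks gave 569 of them, that of 84 weeks 2554 and that of 88 weeks 1052. Clusters were named "-like" from marker genes. The 4 large classes were endothelial-like (975 cells), smooth muscle-like (881), fibroblast-like (215) and T cell-like (1654), the last with thymocyte genes such as Rag1. Hashtags marked the classes unequally: of the cells with at most 1 hashtag, 89.7% of endothelial-like and 90.6% of T cell-like cells had exactly 1, against 16.0% of smooth muscle-like and 16.4% of fibroblast-like cells. For the last 2 classes the sums thus stand for hashtag sets, and a spread between these was not shown to be a spread between mice. At least 1 UMI of the T cell marker genes was present in 30.4% of endothelial-like, 61.1% of smooth muscle-like and 58.1% of fibroblast-like cells. Markers of every large class were found in all the others: the 10 smooth muscle markers summed to 39060 UMIs per 1000000 gene UMIs in smooth muscle-like cells and to 1718, 1669 and 1391 in endothelial-like, fibroblast-like and T cell-like cells.

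Levels are given in CPM, the UMIs of a gene per 1000000 gene UMIs of the class, for the mice of 81, 84 and 88 weeks in that order, and a mean with its SD is over these 3 values. Changes were tested on summed UMIs per mouse with edgeR's quasi-likelihood test with the hashtag (the mouse) as a block, and a call needed a Benjamini-Hochberg adjusted p under 0.05 over all genes tested and a log2 fold change of at least 1 in size. Member genes were left out of the clustering, but genes that vary with them were not, so that differences between classes are not fully independent of how the cells were grouped. In a tissue digest, a higher level in a class means a larger share of the RNA of that class and does not say how much protein is made.

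Promoter windows were printed for 4 members on which the results turn, 3 with their highest level among the large classes in endothelial-like cells (Sema3g, Nrp2 and Plxnd1) and 1 in fibroblast-like cells (Sema3c). Each is the stretch of 250 bases before the start used in the promoter table, 5′ to 3′ in the gene's direction, from RefSeq (GRCm38.p6, the build known as mm10). For Sema3g, Nrp2 and Sema3c that start is the first base of the annotated gene. For Plxnd1 it lies inside the gene's full span (chr6:115954811-115995339), so that window is within the gene and not upstream of its outermost start. Capitals mark each match on either strand to AGGAAG, a word bound by ETS factors, or to GGGCGG, a GC box. Other forms of the ETS site were not searched.
Sema3g, chr14:31217623-31217872, plus strand: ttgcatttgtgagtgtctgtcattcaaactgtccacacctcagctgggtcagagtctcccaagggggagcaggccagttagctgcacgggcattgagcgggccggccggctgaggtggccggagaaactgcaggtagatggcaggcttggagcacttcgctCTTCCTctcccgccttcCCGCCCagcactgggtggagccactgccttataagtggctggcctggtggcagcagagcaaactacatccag
Nrp2, chr1:62703067-62703316, plus strand: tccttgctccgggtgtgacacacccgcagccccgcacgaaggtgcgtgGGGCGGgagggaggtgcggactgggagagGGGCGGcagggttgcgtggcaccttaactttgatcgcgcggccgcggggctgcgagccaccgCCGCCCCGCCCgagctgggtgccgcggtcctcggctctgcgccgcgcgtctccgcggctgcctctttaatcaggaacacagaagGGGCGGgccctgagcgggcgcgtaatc
Plxnd1, chr6:115995006-115995255, minus strand: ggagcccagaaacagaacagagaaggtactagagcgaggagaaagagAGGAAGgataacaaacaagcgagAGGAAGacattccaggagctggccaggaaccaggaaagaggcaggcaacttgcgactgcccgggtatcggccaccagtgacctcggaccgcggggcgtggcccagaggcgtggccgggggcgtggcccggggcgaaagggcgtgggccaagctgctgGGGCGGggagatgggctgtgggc
Sema3c, chr5:17574566-17574815, plus strand: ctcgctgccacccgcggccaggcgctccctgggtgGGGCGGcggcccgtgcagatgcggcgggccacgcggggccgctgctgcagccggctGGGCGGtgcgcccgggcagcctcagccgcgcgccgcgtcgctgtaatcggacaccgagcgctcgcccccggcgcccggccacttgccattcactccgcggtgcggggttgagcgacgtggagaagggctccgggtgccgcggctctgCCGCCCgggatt
The ETS word stands 2 times in the Plxnd1 window, 1 time in that of Sema3g and in neither of the others. GC boxes stand 5 times in the Nrp2 window, where 2 of them overlap, 3 times in that of Sema3c and 1 time each in those of Sema3g and Plxnd1. Of the 32851 windows of this length in the table, 29.5% hold the ETS word and 32.7% a GC box. Promoters were found for 26 of the 31 members, of which 14 hold the ETS word and 21 a GC box. Plxna1, Plxna4, Sema3b, Sema3f and Sema6a were not in the table. These matches describe the letters and are not evidence of binding.

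Members of the family also lie near each other in the genome. Sema3a, Sema3c, Sema3d and Sema3e stand within chr5:12383161-17730268, and Sema3b and Sema3f within chr9:107597674-107710475. Among the 4 large classes, Sema3c, Sema3d and Sema3e of the first group had their highest mean level in fibroblast-like cells and Sema3a in smooth muscle-like cells. Of the second pair, Sema3b was highest in fibroblast-like and Sema3f in smooth muscle-like cells, so these neighbours did not share their highest class.

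Of the 31 members, 3 had fewer than 30 UMIs over all kept cells and are not described by class: Plxnb3 and Sema4f with 1 UMI each and Sema5b with 14. The other members are described by the class of their highest mean level. Of these, 11 had their highest mean level of the large classes in endothelial-like cells, 9 in fibroblast-like, 4 in smooth muscle-like and 4 in T cell-like cells. For Plxna3, Plxna4, Plxnb2, Plxnc1, Sema3e, Sema3f, Sema4b, Sema4g and Sema6c the values in that class overlapped those of the next class. How all genes divide between the classes was not counted. Both neuropilins, Plxna2 and Plxnd1 were highest in endothelial-like cells together with Sema3g, Sema4c, Sema6a, Sema6b, Sema6d and Sema7a, while Sema3b, Sema3c and Sema3d were highest in fibroblast-like cells, Sema5a in smooth muscle-like cells and Sema4d in T cell-like cells.

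Nrp1, the co-receptor shared by most Sema3 proteins and VEGF-A, was measured at 677, 639 and 800 CPM in endothelial-like cells (mean 705 ± 84.0, SD, n = 3). Fibroblast-like cells had 208, 241 and 282, T cell-like cells 62.4, 61.7 and 54.2, and smooth muscle-like cells 26.2, 38.0 and 31.1. The order of the classes was the same in the 3 mice and no neighbouring ranges overlapped. Nrp1 was 4.43 ± 0.13 higher on the log2 scale (± SE here and below) in endothelial-like than in smooth muscle-like cells (adjusted p = 5.06e-10), 1.57 ± 0.13 higher than in fibroblast-like cells (3.45e-08). It was lower in smooth muscle-like than in fibroblast-like cells (-2.80 ± 0.13, 2.3e-17).

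Nrp2, the co-receptor used more by Sema3F and VEGF-C, was high in endothelial-like cells alone among the 4 large classes. It stood at 268, 189 and 233 CPM in endothelial-like cells (mean 230 ± 39.7, SD, n = 3), while smooth muscle-like cells had 16.3, 12.4 and 11.5 and fibroblast-like cells 13.0, 13.7 and 10.2. In T cell-like cells 7 UMIs were counted in all. Every endothelial-like value lay above every value of the other 3 classes. The endothelial-like level was 4.09 ± 0.12 above smooth muscle-like (adjusted p = 5.66e-10) and 4.12 ± 0.22 above fibroblast-like cells (8.64e-11). Smooth muscle-like and fibroblast-like cells did not pass the test for Nrp2 (0.12 ± 0.34).

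Plexin D1, the direct receptor of Sema3E and a member of the endothelial flow response, was at 296, 169 and 202 CPM in endothelial-like cells (mean 222 ± 65.6, SD, n = 3). T cell-like cells followed with 56.1, 76.3 and 67.6. Smooth muscle-like cells had 12.3, 20.7 and 23.2 and fibroblast-like cells 20.8, 28.3 and 17.8, ranges that overlap each other. Plxnd1 was 3.41 ± 0.20 higher in endothelial-like than in smooth muscle-like (adjusted p = 1.12e-07) and 1.64 ± 0.14 higher than in T cell-like cells (5.71e-30). The 148 erythroid-like cells held Plxnd1 at 70.1 pooled over the mice, a level like that of T cell-like cells, and also held T cell markers at a summed 3536, against 6223 in T cell-like cells, and the part of T cell RNA in that value was not tested.

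The A-type plexins, which pair with neuropilins, differed among themselves. Plxna2 was at 179, 164 and 150 CPM in endothelial-like cells and at 20.7, 26.2 and 27.0 in smooth muscle-like cells, a log2 difference of 2.70 ± 0.13 (adjusted p = 1.54e-08). Plxna4 was shared: 22.9, 29.6 and 44.2 in endothelial-like and 31.1, 28.4 and 26.7 in smooth muscle-like cells, which did not pass the test (0.19 ± 0.20), against 7.82, 9.13 and 15.2 in fibroblast-like cells. Smooth muscle-like cells were 1.56 ± 0.31 higher in Plxna4 than fibroblast-like cells (adjusted p = 0.000128), a call that was lost with the stricter hashtag limit (0.44, adjusted p = 0.652), with doublets kept (0.85) and without cells holding T cell RNA (1.05, adjusted p = 0.0712). The excess over fibroblast-like cells in endothelial-like cells (1.65 ± 0.31) was likewise lost with the stricter hashtag limit (0.62, adjusted p = 0.468). Plxna1 was at 23.5, 15.5 and 22.9 in fibroblast-like cells against 12.2, 6.71 and 6.32 in endothelial-like cells, with a log2 change of -1.26 ± 0.38 (adjusted p = 0.0137) that no longer passed in DESeq2 (0.133), without the mouse of 84 weeks (0.0673), without that of 88 weeks (0.0693) or with doublets kept (0.0643). Plxna3 had 46 UMIs in all kept cells and passed the filter on low counts in none of the comparisons.

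Plxnb2, a B-type plexin and thus of the receptors of Sema4 proteins, was lower in endothelial-like cells than in both wall classes, and Plxnb1 lower than in smooth muscle-like cells. Plxnb2 was at 12.2, 5.37 and 8.42 CPM there, at 37.5, 34.0 and 33.8 in smooth muscle-like cells and at 31.3, 40.2 and 45.7 in fibroblast-like cells. All endothelial-like values lay below those of both wall classes, with log2 changes of -2.10 ± 0.22 against smooth muscle-like (adjusted p = 1.22e-05) and -2.26 ± 0.33 against fibroblast-like cells (2.22e-05). The second was lost with the stricter hashtag limit (adjusted p = 0.0811). Plxnb1 was at 12.3, 11.2 and 9.99 in smooth muscle-like cells, and at 3.06, 0.448 and 2.11 in endothelial-like cells (-2.72 ± 0.44, adjusted p = 0.000322). It was 1.88 ± 0.53 higher in smooth muscle-like than in fibroblast-like cells, which did not pass in DESeq2 (adjusted p = 0.0985) or without the mouse of 84 weeks (0.0708). Plxnc1, the receptor of Sema7A, was between 0 and 5.48 in every mouse and large class.

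**Figure D1:**
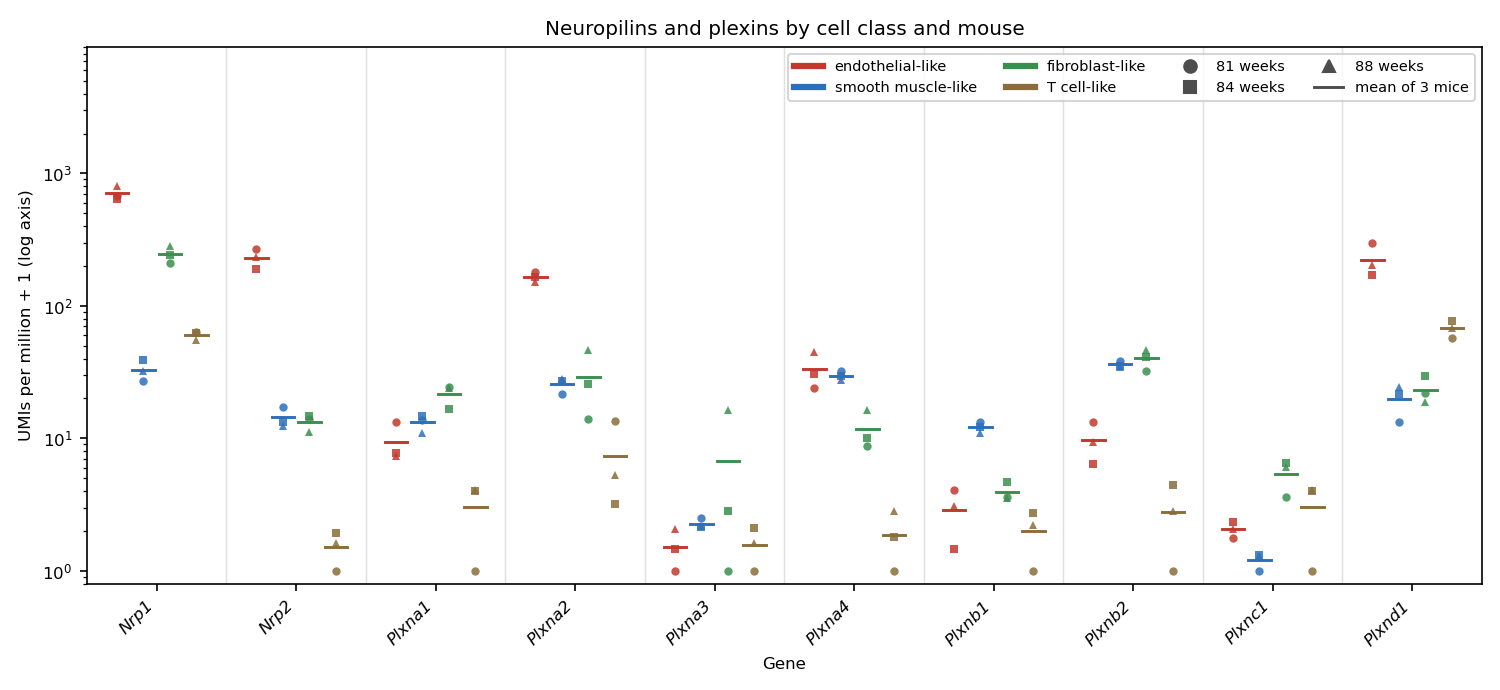
CPM plus 1 (log axis) of 10 receptor genes in the 4 large cell classes; each point is 1 mouse (circle 81, square 84, triangle 88 weeks) and each short line the mean of 3 mice. Nrp1, Nrp2, Plxna2 and Plxnd1 have their highest points in endothelial-like cells, whereas Plxnb1 and Plxnb2 are lower there than in smooth muscle-like cells.

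Among the secreted ligands, Sema3g stood apart as the endothelial one. It was at 93.2, 110 and 84.2 CPM in endothelial-like cells (528 UMIs in all), while smooth muscle-like cells held 5 UMIs, fibroblast-like cells 5 and T cell-like cells 3. The endothelial-like level was 7.70 ± 0.29 above smooth muscle-like (adjusted p = 2.65e-09) and 5.23 ± 0.36 above fibroblast-like cells (2.98e-09) in the fitted model.

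Sema3c and Sema3d were instead ligands of the wall. Sema3c, known for its part in cardiac outflow tract formation, was at 352, 293 and 358 CPM in fibroblast-like cells (mean 334 ± 36.0, SD, n = 3). Smooth muscle-like cells had 102, 99.5 and 110, and endothelial-like cells 3.82, 5.37 and 6.32. The ranges of these 3 classes did not overlap, while T cell-like cells, with 12.5, 5.01 and 7.91, overlapped endothelial-like cells. Sema3c was lower in endothelial-like than in fibroblast-like cells (log2 -5.89 ± 0.20, adjusted p = 4.72e-13), lower than in smooth muscle-like cells (-4.28 ± 0.17, 5.05e-09), and lower in smooth muscle-like than in fibroblast-like cells (-1.58 ± 0.11, 3.79e-13). Sema3d was at 112, 120 and 152 in fibroblast-like, 73.5, 63.5 and 67.9 in smooth muscle-like and 6.88, 4.03 and 5.26 in endothelial-like cells. The step from fibroblast-like to smooth muscle-like cells had the same sign in the 3 mice, but was under the size needed for a call in the fit (-0.83 ± 0.13, adjusted p = 6.2e-06), and reached it with the stricter hashtag limit (-1.02). Endothelial-like cells were lower than both (-4.57 ± 0.24 against fibroblast-like, adjusted p = 8.18e-11, and -3.70 ± 0.19 against smooth muscle-like, 2.88e-08).

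Sema3b was also a ligand of the wall, at 49.5, 31.9 and 30.5 CPM in fibroblast-like and 23.7, 18.1 and 22.9 in smooth muscle-like cells. Endothelial-like cells held 7 UMIs of it, and were lower than fibroblast-like (-4.66 ± 0.45, adjusted p = 1.99e-07) and smooth muscle-like cells (-3.995 ± 0.324, 1.37e-06). Sema3f, a ligand that prefers neuropilin-2, was shared by smooth muscle-like cells (50.8, 50.5 and 42.3) and endothelial-like cells (36.7, 29.6 and 43.7), whose ranges overlapped. These 2 classes did not pass the test (-0.40 ± 0.17, adjusted p = 0.0597), and both were higher than fibroblast-like cells, by 2.43 ± 0.27 for smooth muscle-like (1.45e-08) and 1.89 ± 0.32 for endothelial-like cells (0.000127). Sema3e, the ligand of plexin D1, was low everywhere: smooth muscle-like cells had 6.42, 2.93 and 5.29, fibroblast-like cells 5.21, 7.30 and 10.2, and endothelial-like cells 2 UMIs in all. Sema3a had 50 UMIs in smooth muscle-like cells (3.46, 3.26 and 6.76 CPM) and passed the filter on low counts in no comparison.

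Membrane-bound semaphorins were distributed across all 4 classes. Sema6a, a ligand of A-type plexins, was at 254, 244 and 211 CPM in endothelial-like cells against 2.47, 2.28 and 3.82 in smooth muscle-like cells (6.38 ± 0.17, adjusted p = 3.18e-10) and 13.0, 14.6 and 22.9 in fibroblast-like cells (3.91 ± 0.22, 1.63e-10). Sema6d was at 41.3, 26.9 and 52.1 in endothelial-like, 18.2, 18.3 and 17.8 in fibroblast-like and 1.48, 0.978 and 1.47 in smooth muscle-like cells. It was 4.88 ± 0.25 higher in endothelial-like than in smooth muscle-like cells (adjusted p = 3.4e-08). Its excess over fibroblast-like cells was 1.03 ± 0.27 (adjusted p = 0.00561). That call was lost in DESeq2 (log2 1.1, adjusted p = 0.0969), without the mouse of 88 weeks (0.79, 0.0727) and with the stricter hashtag limit (0.81, 0.33). Its size alone fell under the limit of 1 without the mouse of 81 weeks (0.99, adjusted p = 0.0225) and with doublets kept (0.84, 0.0101). Sema6b had 106 UMIs in endothelial-like cells, 2 in smooth muscle-like, 1 in fibroblast-like and 4 in T cell-like cells.

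Sema7a, a membrane-anchored ligand of integrins and plexin C1, was at 52.7, 61.8 and 41.0 CPM in endothelial-like cells and at 12.5, 18.2 and 16.4 in T cell-like cells. It was 4.72 ± 0.24 higher in endothelial-like than in smooth muscle-like (adjusted p = 2.48e-08) and 3.05 ± 0.36 higher than in fibroblast-like cells (2.61e-06). Sema4c, a ligand of plexin B2, was at 77.2, 66.7 and 42.6 in endothelial-like, 39.1, 16.4 and 15.2 in fibroblast-like and 8.39, 9.29 and 8.23 in smooth muscle-like cells. The endothelial-like level was 2.79 ± 0.18 above smooth muscle-like (adjusted p = 1.85e-07) and 1.60 ± 0.25 above fibroblast-like cells (5.92e-05). Its deficit in smooth muscle-like against fibroblast-like cells (-1.16 ± 0.35, adjusted p = 0.00843) did not pass without the mouse of 81 weeks (-0.75, 0.157), in DESeq2 (0.0879), under 10% mitochondrial UMIs (0.0644) or without cells holding T cell RNA (0.0728).

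Sema5a, which has thrombospondin repeats and binds plexin B3, was the membrane-bound ligand of the muscle layer. Smooth muscle-like cells had 116, 122 and 132 CPM (mean 124 ± 7.82, SD, n = 3), fibroblast-like cells 41.7, 47.5 and 43.2, and endothelial-like cells 10.7, 7.61 and 10.0. The ranges did not overlap. Sema5a was 1.54 ± 0.15 higher in smooth muscle-like than in fibroblast-like cells (adjusted p = 1.28e-09) and lower in endothelial-like than in smooth muscle-like cells (-3.75 ± 0.15, 4.83e-09). Plxnb3 itself had 1 UMI in the whole kept set, which does not speak for other receptors.

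Sema4d, the lymphocyte semaphorin known as CD100 and a ligand of plexin B1, was at 68.6, 94.0 and 102 CPM in T cell-like cells. Endothelial-like cells had 8.40, 10.7 and 9.47, fibroblast-like cells 0, 15.5 and 12.7, and smooth muscle-like cells 3.46, 12.5 and 5.88. Endothelial-like cells were lower than T cell-like cells (-3.03 ± 0.22, adjusted p = 4.19e-43). The other 3 classes also hold T cell RNA, and its part in their Sema4d levels was not tested beyond this: without cells holding T cell RNA, the difference between endothelial-like and smooth muscle-like cells went from 0.31 ± 0.31 (not called) to 2.05 (adjusted p = 0.0137). Sema4b was at 6.24, 12.4 and 12.8 in T cell-like cells and lower in endothelial-like cells (-2.67 ± 0.51, adjusted p = 3.73e-07). Sema4a and Sema4g had 106 and 46 UMIs in all kept cells, were highest of the large classes in T cell-like cells at means of 3.67 and 2.09, and passed the filter on low counts in no comparison.

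**Figure D2:**
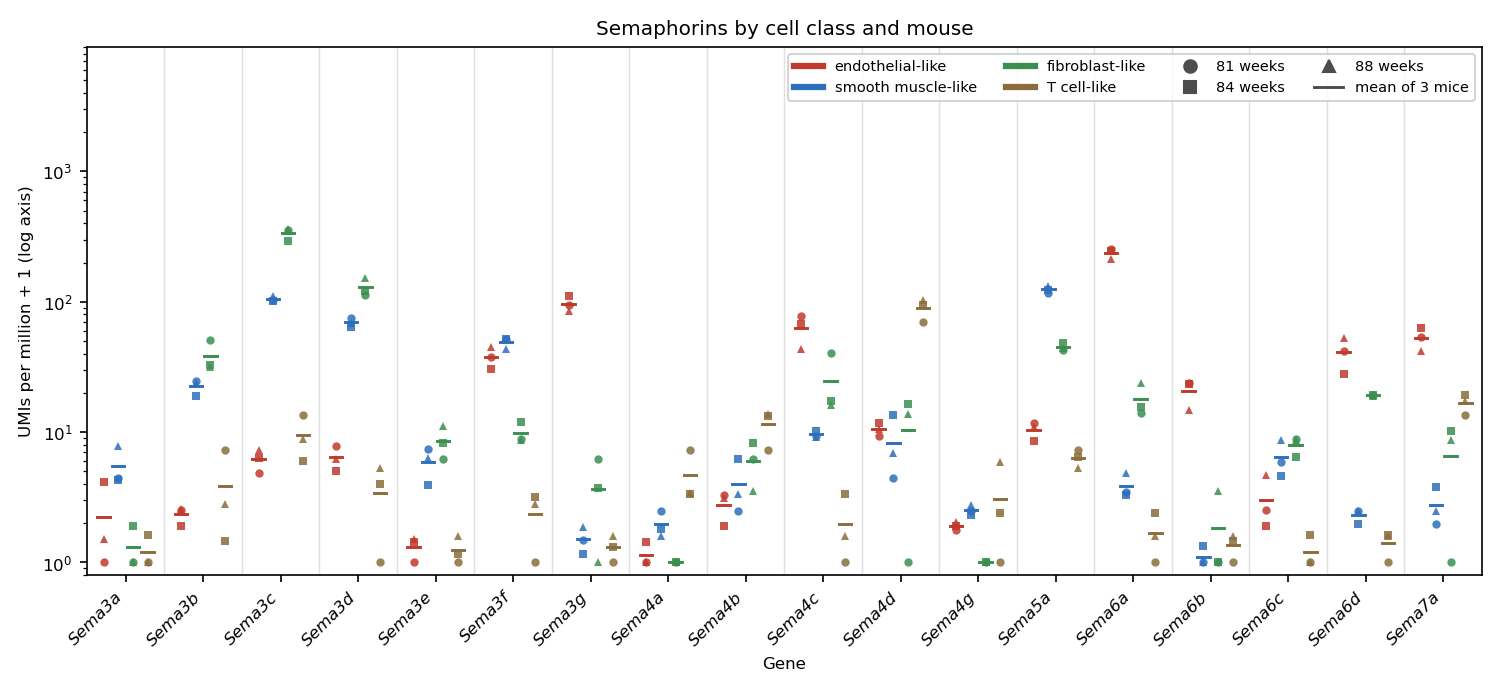
CPM plus 1 (log axis) of 18 semaphorin genes in the 4 large cell classes; each point is 1 mouse and each short line the mean of 3 mice. Sema3g, Sema6a, Sema6b and Sema7a have their highest points in endothelial-like cells, Sema3c and Sema3d in fibroblast-like cells, Sema5a in smooth muscle-like cells and Sema4d in T cell-like cells.

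Counted over the whole family, endothelial-like against smooth muscle-like cells gave 10 members called higher and 8 lower of the 22 that passed the filter on low counts, where 16.0% of all 11111 genes tested were called higher and 16.3% lower. Against fibroblast-like cells it was 12 higher and 6 lower of 19, with a background of 13.4% and 16.0%. Against T cell-like cells it was 14 higher and 2 lower of 18, with 27.2% and 21.1%. Smooth muscle-like against fibroblast-like cells gave 4 higher, 5 lower and 11 not called of 20, with 9.61% and 12.5%. The median log2 change over the members was 0.25, 1.60, 3.97 and -0.42 in the same order, beside 0.00415, -0.00423, 0.0087 and -0.0265 over all genes tested. A member that passed the filter only through the class where it was high had to differ, so these counts describe the tested members and not the family. Plxna1 and Plxnb2, called higher in endothelial-like than in T cell-like cells (1.43 ± 0.48 and 1.43 ± 0.48), did not pass in DESeq2 (adjusted p = 0.0744 and 0.0609). Sema6c, at 11 UMIs in endothelial-like and 58 in smooth muscle-like cells, was called lower (-1.41 ± 0.46, adjusted p = 0.0224), but not without the mouse of 81 weeks (0.0541) or in DESeq2 (0.155).

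**Figure D3:**
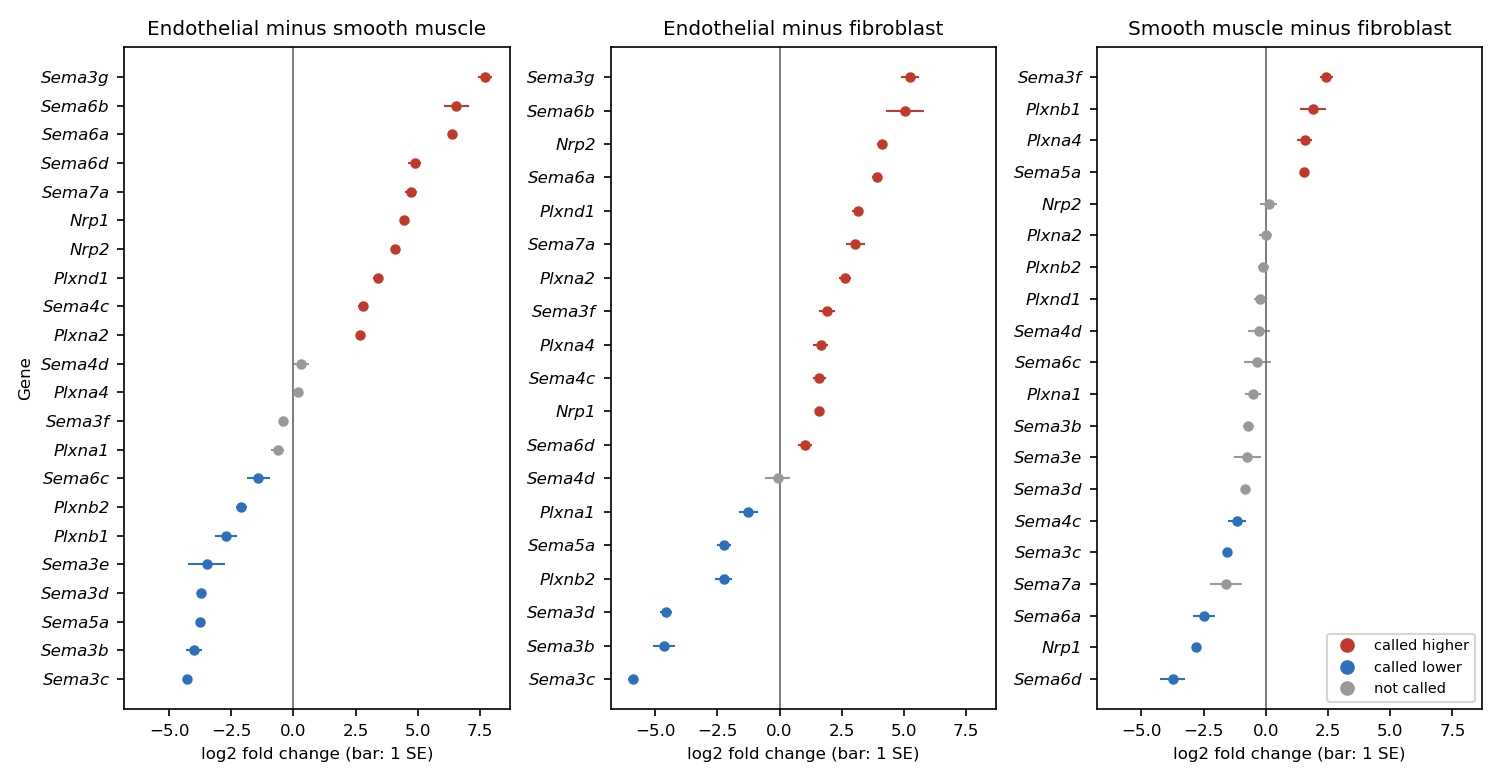
Fitted log2 fold change (point) and 1 SE (bar) of each member that passed the filter on low counts in the 3 comparisons between wall classes; red is called higher, blue called lower and grey not called. Sema3g lies farthest to the right in both endothelial comparisons and Sema3c farthest to the left, while 11 of 20 members are grey between smooth muscle-like and fibroblast-like cells. In the endothelial comparisons, the points of Sema6b and Sema3e rest on 1 or 2 UMIs in the lower class and are no measure of size. The points of Sema3g also rest on few UMIs in the lower class, so its place gives no exact size.

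Endothelial-like cells were not uniform. Subclustering named 573 capillary-like, 50 arterial-like and 72 large-vessel-like cells, the last with Cytl1, Bmp4 and Vwf, genes of the lining of the aorta. The remaining 280 endothelial-like cells lay in 3 clusters without a name, led by T cell genes, by Prnd and Apln, or by haemoglobin genes. The capillary-like class held most endothelial-like cells, so the class levels above are mostly those of small vessels and not of the aortic lining. Arterial-like cells also held RNA of pericytes, the mural cells of small vessels: the 9 pericyte markers summed to 2774 CPM there (2157 to 4096 over the mice), against 148 in capillary-like and 88.9 in large-vessel-like cells and 6072 in the 20 pericyte-like cells. Rgs5 and Ndufa4l2 of that list were among the 10 leading genes of the arterial-like cluster, beside Stmn2 and Fbln5 of the arterial list.

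Sema3g separated these subtypes most clearly. It was at 488, 604 and 716 CPM in arterial-like cells (mean 603 ± 114, SD, n = 3), at 86.6, 94.8 and 96.9 in capillary-like cells and at 37.8, 13.9 and 13.8 in large-vessel-like cells. The 3 ranges did not overlap. Arterial-like cells were 2.60 ± 0.19 above capillary-like (adjusted p = 2.7e-12) and 4.81 ± 0.37 above large-vessel-like cells (4.52e-08), and capillary-like cells 2.32 ± 0.37 above large-vessel-like cells (9.92e-05). Without cells that held at least 2 UMIs of pericyte markers, a setting chosen after the data were seen, these differences were 2.61, 4.09 and 1.57 in the same order and all were called. The mouse of 88 weeks then had too few arterial-like cells (8) to enter the 2 arterial comparisons. Pooled over the mice the 20 arterial-like cells with such RNA had 549 and the 30 without it 635. The capillary-like cells came from a pair of clusters with unlike Sema3g, at 146, 136 and 165 in a cluster of 261 cells and 42.5, 31.9 and 21.7 in one of 312 cells. Sema3g was among the 10 leading genes of the first of these and of the arterial-like cluster.

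Nrp2 was highest in capillary-like cells among the 3 named subtypes. Capillary-like cells had 247, 218 and 276 CPM, arterial-like cells 35.5, 44.2 and 53.0, and large-vessel-like cells 75.5, 41.6 and 0. All capillary-like values lay above all others. Nrp2 was lower in arterial-like than in capillary-like cells (-2.56 ± 0.32, adjusted p = 1.78e-07), and had a log2 change of -3.94 without cells holding pericyte RNA, with 2 mice left. Of the 14 arterial-like UMIs, 12 came from those cells. Capillary-like cells were 3.17 ± 0.50 above large-vessel-like cells (adjusted p = 8.95e-05), which DESeq2 did not call (3.53, adjusted p = 0.145), and the 9 UMIs in the large-vessel-like cells of 84 weeks came from 1 cell. The highest pooled Nrp2 level of the endothelial-like clusters was 411 (95% counting interval 374 to 451). It stood in the unnamed cluster of 162 cells led by Prnd and Apln, at 410, 287 and 480 in the 3 mice. Venous markers scored highest there, with a mean log2 excess of 1.04 over the endothelial-like clusters, under the limit of 1.1 for a name. Endothelial clustering at resolution 0.3 named 28 venous-like cells, with Nrp2 at 340.5 pooled (266 to 429) against 259.5 in its capillary-like cells. At resolution 0.8, 74 cells were named venous-like, with Nrp2 at 303.5, 283 and 238, and none capillary-like.

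Nrp1 did not divide the subtypes in the same way. It was at 704, 701 and 686 CPM in capillary-like, 612, 509 and 398 in arterial-like and 302, 634 and 1331 in large-vessel-like cells. The last group had the widest spread between mice. Its 5 highest cells held 66.7%, 83.9% and 58.5% of its Nrp1 UMIs in the 3 mice, against 62.3%, 60.9% and 63.3% in the smaller arterial-like group. At 88 weeks 31 of 32 large-vessel-like cells held Nrp1, with a median of 910 CPM per cell, against medians of 153 at 81 and 274 at 84 weeks. Capillary-like and large-vessel-like cells did not pass the test (0.08 ± 0.29, adjusted p = 0.858), and arterial-like cells were below capillary-like cells by less than the size needed for a call (-0.55 ± 0.17, adjusted p = 0.0225).

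Plxnd1 was at 299.9, 178 and 194 CPM in capillary-like, 106, 103 and 106 in arterial-like and 227, 120 and 133 in large-vessel-like cells. Arterial-like values lay below all others. The difference from capillary-like cells (-1.16 ± 0.27, adjusted p = 0.00193) did not pass in DESeq2 (-1.15, 0.0628), without the mouse of 81 weeks (-0.92, 0.0773) or without cells holding T cell RNA (-0.75, 0.0918). It also did not pass under 10% mitochondrial UMIs (-1.22, 0.0813) or without cells holding pericyte RNA (-1.16, 0.0966), where 2 mice were left. Plxna2 was at 227, 193 and 165 in capillary-like and 69.2, 97.1 and 103 in large-vessel-like cells (1.05 ± 0.24, adjusted p = 0.00219). Its size fell under the limit of 1 without the mouse of 81 weeks (0.84), with the stricter hashtag limit (0.998), without cells holding T cell RNA (0.81) and in a single fit over all groups (0.97).

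Large-vessel-like cells stood out for Plxna4, Sema3f and Sema4d. Plxna4 was at 101, 74.0 and 124 CPM there against 6.67, 23.1 and 15.5 in capillary-like cells, a log2 change of -2.54 ± 0.35 for capillary-like against large-vessel-like cells (adjusted p = 2.36e-05). Sema3f was at 101, 116 and 94.2 against 15.6, 18.3 and 34.9 (-2.09 ± 0.31, adjusted p = 5.57e-05). Neither pair of ranges overlapped. Arterial-like cells were also lower in both than large-vessel-like cells, Plxna4 by -1.34 ± 0.43 (adjusted p = 0.0262) and Sema3f by -1.76 ± 0.44 (0.00568). The Plxna4 call was lost in DESeq2 (0.255) and without any 1 of the mice (0.0617 to 0.13), and the Sema3f call in DESeq2 (0.121), without the mouse of 88 weeks (0.0556) and under 10% mitochondrial UMIs (0.0522).

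Sema4d was at 62.9, 46.3 and 34.5 CPM in large-vessel-like cells and at 0, 3.98 and 1.29 in capillary-like cells. It was found as 10, 10 and 15 UMIs in 7, 6 and 11 large-vessel-like cells, against 6 UMIs in all 573 capillary-like cells. The change was -4.19 ± 0.63 (adjusted p = 5.61e-05). T cell markers summed to 125 in large-vessel-like and 121 in capillary-like cells, with T cell RNA in 29.2% and 26.2% of cells.

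Other membrane-bound ligands were higher in capillary-like than in large-vessel-like cells. Sema6a was at 344, 280 and 275 CPM in capillary-like and 107, 139 and 136 in large-vessel-like cells (1.22 ± 0.22, adjusted p = 0.00031). Sema4c was at 84.4, 86.8 and 71.1 against 25.2, 27.8 and 4.596 (2.35 ± 0.41, 0.000239). Sema7a was at 51.1, 70.9 and 58.1 against 6.29, 0 and 9.19 (3.29 ± 0.51, 7.66e-05). In all 3 the capillary-like values lay above every large-vessel-like value. Arterial-like cells had means of 181 for Sema6a, 42.3 for Sema4c and 58.5 for Sema7a. None of the 3 was called between arterial-like and capillary-like cells (log2 -0.78, -0.86 and -0.09). Sema6d went in the opposite direction, at 33.3, 21.5 and 36.2 in capillary-like and 44.1, 60.1 and 85.03 in large-vessel-like cells (-1.11 ± 0.31, adjusted p = 0.00963). That call was lost in 6 settings, among them DESeq2 (0.19), without the mouse of 84 weeks (0.072) and without that of 88 weeks (0.0884).

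Arterial-like cells also exceeded capillary-like cells in Sema6d and Sema5a, with few UMIs behind each. Sema6d was at 62.1, 88.5 and 66.3 CPM in arterial-like cells (1.27 ± 0.42, adjusted p = 0.0385), a call lost in 6 settings. The fold was smaller without the mouse of 84 weeks (0.79, adjusted p = 0.528), with doublets kept (0.76, 0.582) and without the filter (1.09, 0.13), and near or above that reported in DESeq2 (1.22, 0.363) and without T cell RNA (1.43, 0.0886) or pericyte RNA (1.42, 0.136). Sema5a was found as 5, 4 and 5 UMIs in arterial-like cells, at 44.4, 29.5 and 66.3, against 4.44, 3.19 and 5.17 in capillary-like cells (3.25 ± 0.75, adjusted p = 0.00226). All 14 of those UMIs lay in the 20 cells with pericyte RNA and none in the 30 without it, which allows a level of up to 19.4 there. Pericyte-like cells had Sema5a at 247, and smooth muscle-like cells a mean of 123.5. At least 2 UMIs of pericyte markers were also held by 94.4% of smooth muscle-like and 73.5% of fibroblast-like cells. The class of origin of the Sema5a UMIs was not tested.

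**Figure D4:**
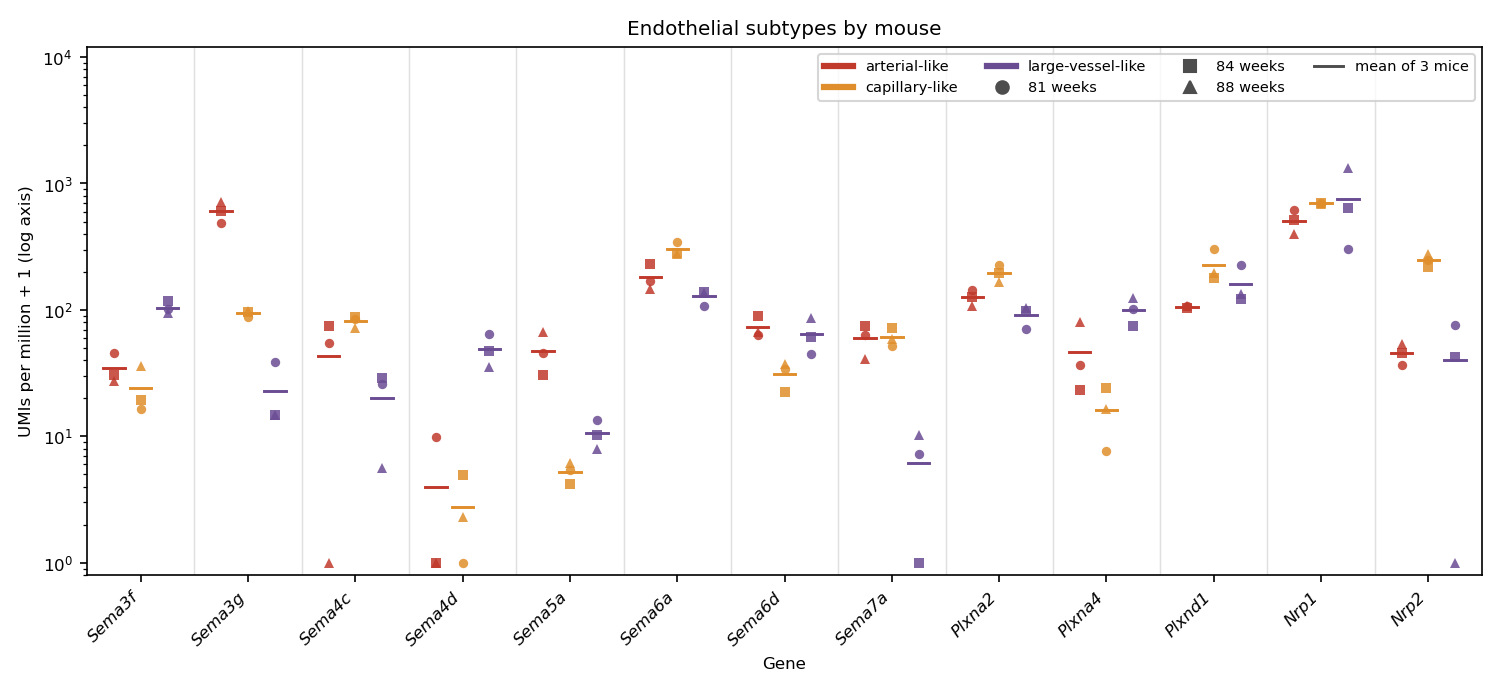
CPM plus 1 (log axis) of members in capillary-like, arterial-like and large-vessel-like endothelial cells; each point is 1 mouse and each short line the mean of 3 mice. Sema3g is highest in arterial-like cells, Nrp2 in capillary-like cells, and Plxna4, Sema3f and Sema4d in large-vessel-like cells, while the large-vessel-like Nrp1 values run from 302 to 1331.

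In counts, capillary-like against large-vessel-like cells gave 6 members higher and 4 lower of 12 tested, with 11.8% and 13.7% of all genes tested called. Arterial-like against capillary-like cells gave 3 higher and 2 lower of 12, with 5.89% and 3.49%. Arterial-like against large-vessel-like cells gave 1 higher and 2 lower of 8, with 12.1% and 11.3%. The median log2 change over the members tested was 0.79, -0.32 and -0.20 in that order, beside 0.0156, -0.0193 and 0.0198 over all genes tested. Here too a member that passed the filter only through the subtype where it was high had to differ. These counts and medians therefore describe the tested members and not the family. Sema3g was the only member called in the same direction in both arterial comparisons and in each setting that gave a value for them.

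The partners of the family were read from lists. Of 9 VEGF ligands and receptors that pair with neuropilins, 4 were higher and 2 lower in endothelial-like than in smooth muscle-like cells, and 3 higher and 4 lower than in fibroblast-like cells. The share of all genes called was 16.0% up and 16.3% down against smooth muscle-like cells, and 13.4% and 16.0% against fibroblast-like cells. Kdr, the main signalling VEGF receptor, was at 1019 CPM in endothelial-like and 5.08 in smooth muscle-like cells (7.68 ± 0.19, adjusted p = 2.14e-10), and Flt1, a VEGF receptor that mostly captures ligand, at 1265 and 35.9 (5.13 ± 0.14, 3.18e-10). Both thus lay in the class with the highest Nrp1 and Nrp2. Vegfd, a lymphatic growth factor, was at 94.1 in fibroblast-like and 1.56 in endothelial-like cells (-5.91 ± 0.33, adjusted p = 1.84e-10). Vegfa was lower in endothelial-like than in fibroblast-like cells (-1.27 ± 0.38, 0.0128) with the same sign in 2 of 3 mice, and did not reach a call against smooth muscle-like cells (0.99 ± 0.35).

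Within the endothelium, the same list had 2 higher and 3 lower of 7 tested in capillary-like against large-vessel-like cells, with 11.8% and 13.7% over all genes. Kdr was at 1401 and 47.2 (5.24 ± 0.40, adjusted p = 2.83e-08) and Flt1 at 1599 and 165 (3.60 ± 0.36, 7.94e-07), while Vegfa was at 6.50 and 45.9 (-2.56 ± 0.49, 0.000627). Large-vessel-like cells thus held less Kdr and Nrp2 RNA per UMI than capillary-like cells. In arterial-like against capillary-like cells 1 of 4 tested was higher and 1 lower, with 5.89% and 3.49% over all genes: Vegfc, a ligand of neuropilin-2 and lymphatic growth factor, at 153 against 2.28 (5.95 ± 0.55, adjusted p = 2.97e-10), and Kdr at 565 against 1401 (-1.40 ± 0.15, 1.06e-08). The part of pericyte RNA in these arterial-like levels was not tested.

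Of 22 small GTPases and regulators downstream of plexins, 21 were tested between endothelial-like and smooth muscle-like cells, with 4 higher and 4 lower, shares near the 16.0% and 16.3% over all genes. Rap1b, a direct substrate of the plexin GAP domain, was higher (1.63 ± 0.09), and Rnd3 (-3.06 ± 0.15) and Rock1 (-1.58 ± 0.09), regulators of actomyosin tension, were lower. Against fibroblast-like cells 1 was higher and 1 lower of 19, with 13.4% and 16.0% over all genes. Rap1a was higher in capillary-like than in large-vessel-like cells (2.18 ± 0.26), where 3 of 14 tested were higher and 0 lower beside 11.8% and 13.7% over all genes, and 0 of 11 were called between arterial-like and capillary-like cells, where edgeR called 299 genes higher and 177 lower in all and 1109 had an unadjusted p under 0.05.

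Of 22 cytoskeletal effectors and kinases, 18 were tested between endothelial-like and smooth muscle-like cells, with 5 higher and 5 lower beside 16.0% and 16.3% over all genes. Fyn (2.61 ± 0.17) and Ptk2 (2.43 ± 0.13), kinases of plexin A and integrin signalling, were higher, and Dpysl3 (-2.61 ± 0.24), a microtubule-binding collapsin response protein, and Mical2 (-1.93 ± 0.19), an actin-oxidising enzyme, were lower. Mical2 was also lower in capillary-like than in large-vessel-like cells (-2.84 ± 0.24, adjusted p = 9.68e-08). Of 14 other receptors and co-receptors, 4 were tested in the same comparison, with the same shares over all genes: 3 were higher, among them Itga1 (1.49 ± 0.08), a subunit of the integrin that binds Sema7A, and Itgb1, its partner, was lower (-1.04 ± 0.08).

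Of 8 enzymes that cleave semaphorins, 7 were tested between endothelial-like and smooth muscle-like cells, with 3 higher and 2 lower beside 16.0% and 16.3% over all genes. Adam10 (2.27 ± 0.11) and Adam17 (1.76 ± 0.13), which shed membrane proteins, were higher in endothelial-like cells. Against fibroblast-like cells 3 of 8 were higher and 3 lower, with 13.4% and 16.0% over all genes. Pcsk6, a furin-like convertase, was at 2.99 against 176 (-5.81 ± 0.26, adjusted p = 1.24e-11) and Mmp14, a membrane-bound metalloprotease, at 7.06 against 140 (-4.20 ± 0.28, 1.52e-09), and both were also lower in smooth muscle-like than in fibroblast-like cells (-5.01 ± 0.18 and -2.43 ± 0.17). Adamts1 was at 1164 in arterial-like and 382 in capillary-like cells (1.53 ± 0.15, adjusted p = 1.71e-09). Pericyte RNA was held by 40% of arterial-like and 10.1% of capillary-like cells, and its part in the Adamts1 levels was not tested.

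Small classes of at most 31 cells also held members of the family. They are described pooled over the mice, with 95% counting intervals that cover counting error only, and were not tested. Mesothelial-like cells, the outer lining of organs, held Sema3c at 602 (532 to 678), Sema3d at 341 (289 to 400) and Plxna4 at 462 (401 to 529), and only 22.3 of Nrp1. Fibroblast markers summed to 6700 in these cells against 39680 in fibroblast-like cells. Macrophage-like cells held Nrp1 at 325 (248 to 417), Plxnb2 at 192 (134 to 265), Plxnc1 at 85.1 (48.7 to 138) and Sema4a, a ligand known from myeloid cells, at 170 (116 to 240). Sema4a was at 6.09 in erythroid-like cells. Pericyte-like cells, in which the smooth muscle markers summed to 25810, held Sema5a at 247 (176 to 336), Nrp1 at 179 (120 to 257) and 5 of the 14 UMIs of Sema5b.

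**Figure D5:**
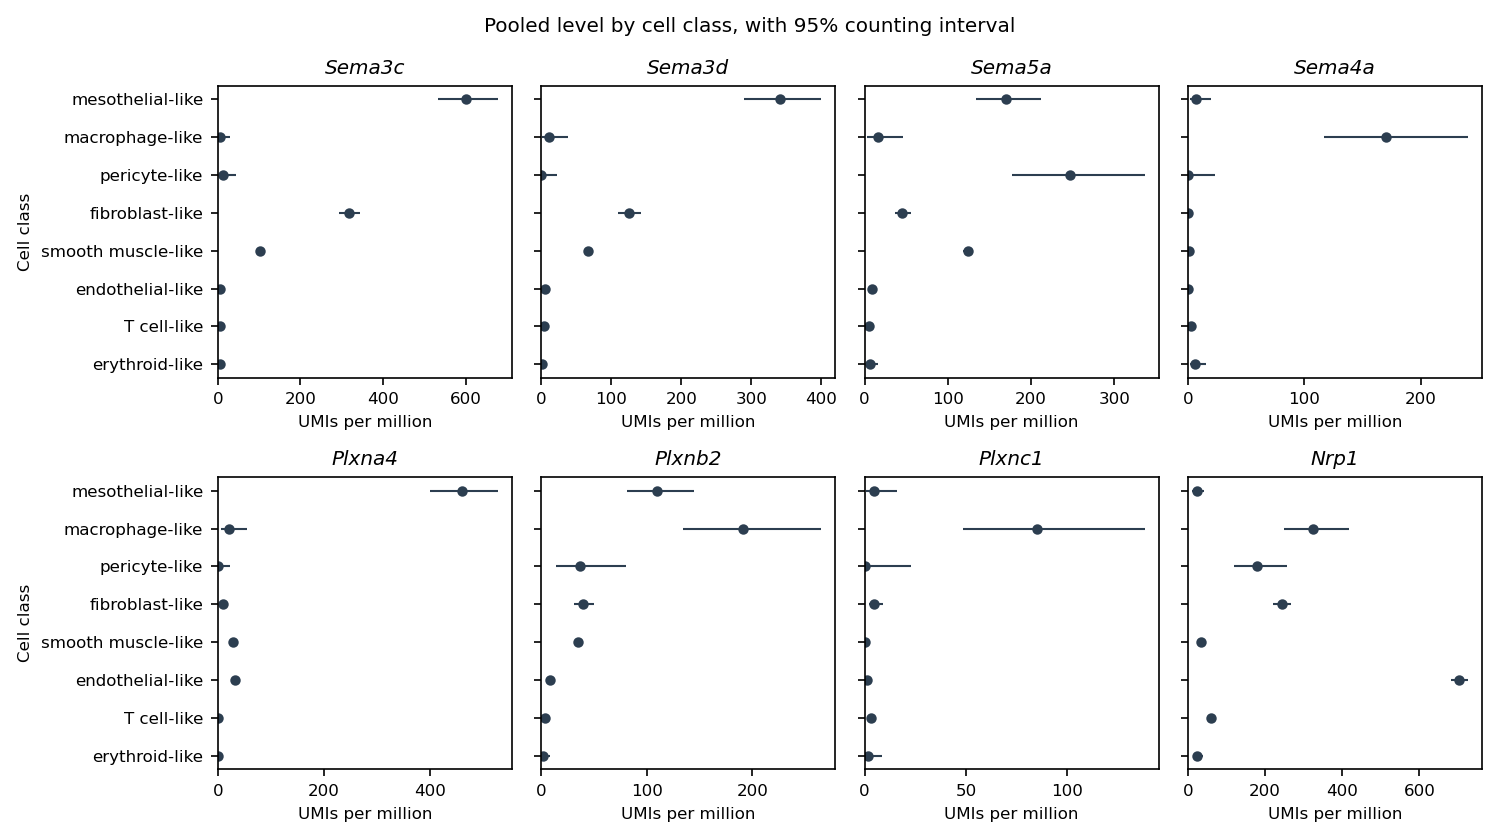
Pooled CPM with 95% counting interval of 8 members in mesothelial-like, macrophage-like, pericyte-like, fibroblast-like, smooth muscle-like, endothelial-like, T cell-like and erythroid-like cells. Sema3c, Sema3d and Plxna4 are highest in mesothelial-like cells, Sema4a and Plxnc1 in macrophage-like cells, and Sema5a in pericyte-like cells.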

How the data were processed

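Gene UMI counts of the aortic cell pool were deposited by the authors as 1 matrix of raw counts from Cell Ranger 6.0.1, per the file headers; the labels' protocols describe a 10x 3′ library of digested tissue, and the submitters' processing notes name Seurat 4.0.5 and mm10. The libraries cannot be told apart in the matrix, so depth per library is not known, and hashtags were tied to mice by the deposited feature table. Cells were assigned with HTODemux (Seurat 5.3.0, quantile 0.99, cutoffs 129, 765 and 266 UMIs), doublets (360 of 11301 cells) were called from simulated pairs, and cells were clustered with scanpy 1.11.5 (2000 variable genes without the members and pathway lists, 30 components, Leiden resolution 0.8, 0.5 for endothelial-like cells). Clusters were named from markers. A name needed a mean log2 excess of at least 1.5 for classes or 1.1 for endothelial subtypes, with at least 3 markers raised. UMI counts were summed per class and mouse (at least 10 cells) and tested with edgeR 4.0.16 (R 4.3.3; filterByExpr, TMM, quasi-likelihood, Benjamini-Hochberg), tested on simulated data first. The hashtag was a block, since each hashtag marks 1 mouse per the deposited feature table; for smooth muscle-like and fibroblast-like cells this origin was not shown. edgeR p-values weigh each change against a spread between hashtag sets that the quasi-likelihood fit estimates in part from all genes tested. They rest more on that shared estimate than on the spread of the gene itself, so very small values do not measure agreement between mice. Counting intervals are exact Poisson intervals, and the limit for a count of 0 is 3 counts.

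All members were accounted for. Of each pathway list, up to 2 called genes each way with the largest change, the same sign in every mouse and at least 50 CPM were eligible to be named, and Kdr, Flt1 and Vegfa always; a selection of these is printed. The members and lists were chosen with earlier results of these data known. The alternatives were other normalization, DESeq2 1.42.0, no filter, no block, each mouse left out, other cell filters and other clusterings. Those without 2 smooth muscle-like clusters, without 2 endothelial clusters and without pericyte RNA were chosen after seeing the data. The limits for naming clusters were also set after seeing the data. The stricter hashtag limit required at least 2 times the cutoff.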

Additional observations from a re-analysis of the deposited data

How the results depend on the processing

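Of the member fold changes, 1252 of the values under other settings kept direction and side of the threshold, 53 fell under it, 11 rose past it and 28 changed sign, none of the last from or to a call; the cause of these changes was not tested. Members of few UMIs fell under the filter on low counts in some settings and then had no value there. Of the counts called, 318 stayed close to those reported and 38 moved. Of the levels under other endothelial clusterings or in cells with at most 1 hashtag, 127 stayed within the SD or counting interval and 19 moved. In cells with at most 1 hashtag, the arterial-like cluster held only 11 cells, led by Rgs5 and Notch3, with Sema3g at 445 pooled (325 to 596). Without the replicate block, which pairs sums of the same hashtag, 1660 genes were higher and 1696 lower in endothelial-like than in smooth muscle-like cells, with 10 and 6 members.

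With the stricter hashtag limit, 963 genes were lower in endothelial-like than in fibroblast-like cells (1608 as reported), and smooth muscle-like against fibroblast-like cells had 606 genes higher and 674 lower (1017 and 1327), with 2 members higher and 3 lower. Without cells holding T cell RNA, that comparison had 2 members higher, and arterial-like against capillary-like cells 1 higher and 1 lower. With 1 mouse left out, members lower in endothelial-like than in T cell-like cells numbered 1 to 2, members lower in arterial-like than in capillary-like cells 1 to 2, and arterial-like against large-vessel-like cells had 243 to 324 genes higher, 212 to 312 lower and 0 to 2 members lower, with the lowest counts without the mouse of 88 weeks. DESeq2 gave 498 genes higher in capillary-like than in large-vessel-like cells (789), 196 higher and 74 lower in arterial-like than in capillary-like cells (299 and 177, 1 member lower), and 228 higher and 212 lower in arterial-like than in large-vessel-like cells (378 and 352, 0 members lower). In 3 settings (under 10% mitochondrial UMIs, without pericyte RNA and with doublets kept) the mouse of 88 weeks had 8 arterial-like cells and dropped out of the arterial comparisons, so that the setting and the loss of this mouse cannot be told apart. Under 10% mitochondrial UMIs, arterial-like against capillary-like cells had 117 genes higher and 50 lower, with 1 member each way, and arterial-like against large-vessel-like cells 222 genes and 0 members lower. Without cells holding pericyte RNA these were 161 higher, 78 lower, 1 member each way, and 228 genes and 0 members lower. With doublets kept, arterial-like cells had 1 member higher than capillary-like and 1 lower than large-vessel-like cells. Without the filter, 557 genes were lower and 2 members higher in arterial-like than in large-vessel-like cells, and a single fit over all groups also gave 2 members higher. The stricter hashtag limit could not be run for the arterial comparisons because fewer than 2 mice had enough cells, and endothelial clustering at resolution 0.8 gave no capillary-like cluster.

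Uncalled log2 changes that reversed were as follows. Between endothelial-like and smooth muscle-like cells Plxna4 ran from -0.125 to 0.394 with 1 mouse left out, and against fibroblast-like cells Sema4d to 0.27 in DESeq2. Between smooth muscle-like and fibroblast-like cells Nrp2 went to -0.30 with doublets kept, Plxna1 to 0.23 without T cell RNA, Plxnd1 to 0.017 with the stricter hashtag limit, Plxnb2 to 0.0776 under 10% mitochondrial UMIs and 0.11 with the stricter limit, and Plxna2 to 0.027 in DESeq2, 0.068 without the filter, -0.208 to 0.293 with 1 mouse left out, 0.0343 in a single fit and 0.0476 without 2 smooth muscle-like clusters. Between endothelial-like and T cell-like cells Sema3c went to 0.10 with median-ratio size factors, -0.427 to 0.125 with 1 mouse left out, 0.15 without the replicate block and 0.0944 with doublets kept. Between capillary-like and large-vessel-like cells Nrp1 went to -0.40 to 0.604 with 1 mouse left out, -0.18 without the replicate block, -0.0114 without T cell RNA and -0.0899 in a single fit. Between arterial-like and capillary-like cells Sema7a went to -0.211 to 0.0655 with 1 mouse left out, 0.0155 under 10% mitochondrial UMIs, 0.0946 without T cell RNA and 0.36 without pericyte RNA. Between arterial-like and large-vessel-like cells Sema6d went to -0.00275 without the mouse of 81 weeks, and Nrp1 to -1.14 to 0.164 with 1 mouse left out, 0.24 under 10% mitochondrial UMIs and 0.17 without pericyte RNA. The Nrp1 value of -1.14, without the mouse of 81 weeks, was itself a call in edgeR (adjusted p = 0.0173). Depth limits the arterial comparisons most, with 50 cells and 13 to 19 per mouse.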

Other observations

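Several values lay outside the comparisons because the cells carried no hashtag or the clusters had no counterpart. They are pooled, with 95% counting intervals, and no test was made. Among the 10408 cells with at most 1 hashtag, 13 formed a lymphatic-like cluster led by Ccl21a, Lyve1 and Mmrn1. Nrp2, the neuropilin known for lymphatic vessels, was at 928 CPM (UMIs per 1000000) there (754 to 1130, 99 UMIs), while Nrp1 had 0 UMIs, which allows a level of up to 28.1. Sema3d was at 412 (300 to 554), Sema3a at 84.4 (38.6 to 160) and Sema3f at 159 (92.8 to 255). A Schwann-like cluster of 17 cells held Sema3b at 310 (205 to 452), and 4 UMIs of Sema4f, which had 1 UMI in the kept cells.

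Fibroblast-like cells of any hashtag state divided by Sema3c. A cluster of 759 cells led by Clec3b and Pi16 had 517 (499 to 535), at 526, 425 and 566 in the tagged cells of the 3 mice, and a cluster of 543 cells with Lum, Cygb and Smoc2 among its leading genes had 83.1 (74.5 to 92.3), at 80.1, 91.4 and 50.5. Nrp1 was at 211 in the first and 304 in the second. Smooth muscle-like cells divided by Sema3a and Sema3e: a cluster of 1552 cells led by Tnnt2 and Des had Sema3a at 1.22 and Sema3e at 0.61, against 6.84 and 8.15 in a cluster of 1593 cells and 7.43 and 6.77 in one of 1609 cells.

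T cell-like clusters differed in receptors more than in Sema4d. Plxnd1 was at 140 (125 to 157) in 713 cells led by Rag1 and Cd8b1, and at 23.2 (15.9 to 32.8) in 191 cells led by histone and replication genes. Nrp1 was at 104 (87.5 to 122) in the latter and 14.6 (6.98 to 26.8) in 191 cells led by Lef1 and Cd5. Sema4d was at 112, 88.6 and 97.5 in these 3 clusters.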
